A study of Mus musculus with 8 samples.

Results

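The kinetochore, spindle and chromosome segregation genes were followed in proliferating mouse myoblasts in which the long non-coding RNA Pvt1 had been silenced. The members were chosen by gene symbol: Cenp with 1 letter, the Ndc80 and Ska complexes, Bub and Mad names, Aurora and polo-like kinases, Anapc names and Cdc20, Smc names, Rad21, Ncap names of condensin, and a set of kinesins of mitosis. The rule used no measured value, and it leaves out subunits of the same complexes that carry other symbols, such as Cdc16, Cdc23, Cdc26 and Cdc27 of the anaphase-promoting complex, Stag1 and Stag2 of cohesin, and Cenpc1. It found 77 of the 37074 gene names on the array, namely 76 genes and the antisense RNA Smc2os, covered by 154 probes.

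C2C12 is a mouse myoblast line, maintained in proliferation medium with serum and used at passage 10. The 4 silenced cultures (biological replicates 1 to 4) had been transfected by lipofection with antisense LNA GapmeRs against Pvt1, which are short oligonucleotides with locked ends that direct RNase H to the target RNA. The sources name 2 of these oligonucleotides, Pvt1_1 (ACCGTAGTAGAGTTAA) and Pvt1_3 (AGTCAACGCTTCACAT), without saying which replicate received which. The 4 control cultures had received the same reagent with negative control GapmeRs, so that both groups were transfected and no untransfected culture was analysed here. Each culture was measured on 1 Agilent 1-colour array of 60-base probes, and all 8 arrays shared 1 slide. C2C12 is an immortal line. Per the study's methods, cells were seeded densely for transfection in Opti-MEM with serum and lysed 48 h later, when this medium was taken off.

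During mitosis the kinetochore assembles on centromeric chromatin marked by the histone variant Cenp-A, and its outer layer binds microtubules of the spindle. The spindle checkpoint holds the anaphase-promoting complex in check until chromosomes are attached, while cohesin keeps sister chromatids together and condensin compacts them. Transcripts of many of these genes rise towards mitosis and are low in resting cells, so they are often read as a proliferation signature, and myoblasts lose them when they leave the cell cycle to form myotubes.

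Signal is given as log2 of the processed signal after quantile normalization, each gene is represented by its brightest tested probe, and a change is the silenced minus the control mean on that scale. A probe was tested where at least 3 of the 4 arrays of each group had a value, and a gene is called lower or higher at a limma p-value, adjusted by Benjamini-Hochberg over all 28649 tested probes, under 0.05. Pvt1 itself fell by 2.86 ± 0.32 (SE, adjusted p = 0.000682 in limma, exact two-sided permutation p = 0.0286, the smallest that 4 against 4 arrays allow), to 13.8% of the control signal. Its values were 9.65, 9.79, 10.31 and 9.70 on the control arrays and 7.09, 6.69, 7.85 and 6.39 on the silenced arrays, with no overlap between the groups.

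Spots that Feature Extraction marked positive and significant made up 58.8 to 62.5% of each control array and 59.8 to 61.0% of silenced replicates 1 to 3, but 51.6% of silenced replicate 4. Control replicate 3 correlated less with the other controls (mean Pearson's r across probes 0.962) than these did with their own group (0.981 to 0.982). By the barcodes in the headers the slide held its arrays in 2 rows. Row 1 had control replicates 1 to 3 and silenced replicate 1, and row 2 had the other arrays. Of the myoblast markers, Myod1, Cdh15, Des, Vim, Pax7 and Ncam1 were well above background on all 8 arrays, and Myf5 was well above background on none. Myod1 (-1.95), Des (-1.35) and Cdh15 (-0.86) were lower in the silenced cells, and Vim, Pax7 (0.02), Ncam1 and Myf5 were not called. With dim spots kept, the same 3 were lower, but Pax7 (0.36, adjusted p = 0.0176) and Myf5 (1.16, adjusted p = 0.0170) were higher, and 3 of 7 genes of differentiating muscle were lower. Myog, the factor of terminal differentiation, was not called either way (0.13 with dim spots masked and 0.46 with them kept), and its positive sign rests on control replicate 3, at 4.80 where the other controls had 8.07 to 8.24 and the silenced arrays 7.68 to 7.85, with a change of -0.38 without that array. With dim spots kept, 8 of 15 liver genes were higher in the silenced arrays, by 2.64 (Ttr) to 6.74 (Mup1). Each of these 8 stood clear of background in 3 or 4 silenced cultures, but in none of the control cultures. The summed linear signal of the list ranged from 5274 to 6688 on the silenced arrays against 1010 to 1836 in the controls. Apoa2 (change 0.11, not called) was the only liver gene clear of background in the controls, and 6 of the 15 were well above background on no array. Of the other lists, 1 of 3 fibroblast and 1 of 3 blood and immune genes (Cd68) were higher, and both endothelial genes were well above background on no array. The part of these array, position and marker differences in the values of the mitotic genes was not tested.

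Of the 77 members, 74 could be tested. The other three, Aurkc and Smc1b, which act mainly in meiosis, and Smc2os, were well above background on no array. After Pvt1 silencing 16 members (21.6%) were lower, against 14.0% of the 19360 genes tested on the array, and 2 (2.70%) were higher, against 5.99% of all genes. The count of higher members was 7 with cyclic loess (22.1% of all genes), 8 in the authors' series table (12.8%), 9 without the mask of dim spots (10.8%), 6 without silenced replicate 4 (14.5%), and 0 when slide row was blocked on (2.41%). The change was negative in 57 members and positive in 17. Over all genes negative changes also outnumbered positive ones, and their share was not counted. The median change of the members was -0.38, beside -0.09 over all genes. Without silenced replicate 4 these medians were -0.18 and 0.06, and with cyclic loess -0.17 and 0.11. In 19 members every silenced value lay below every control value (25.7%, against 18.9% of all genes), in 2 every silenced value lay above (7.10% of all genes), and 8 members were called and at least halved in signal (10.8%, against 9.00%). The median of the members minus that of all genes was -0.28, and -0.16 when arrays were shifted to a common 75th percentile. All 16 lower members were well above background on all 8 arrays, where 14.3% of all such genes were lower. The count of lower members was 10 without control replicate 2, 10 without control replicate 4, and 8 with the slide row as a block, where the shares of all genes called lower were 7.56, 7.39 and 5.97%. Bulk RNA cannot tell fewer cells in mitosis from less RNA of these genes per cell.

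**Figure D1:**
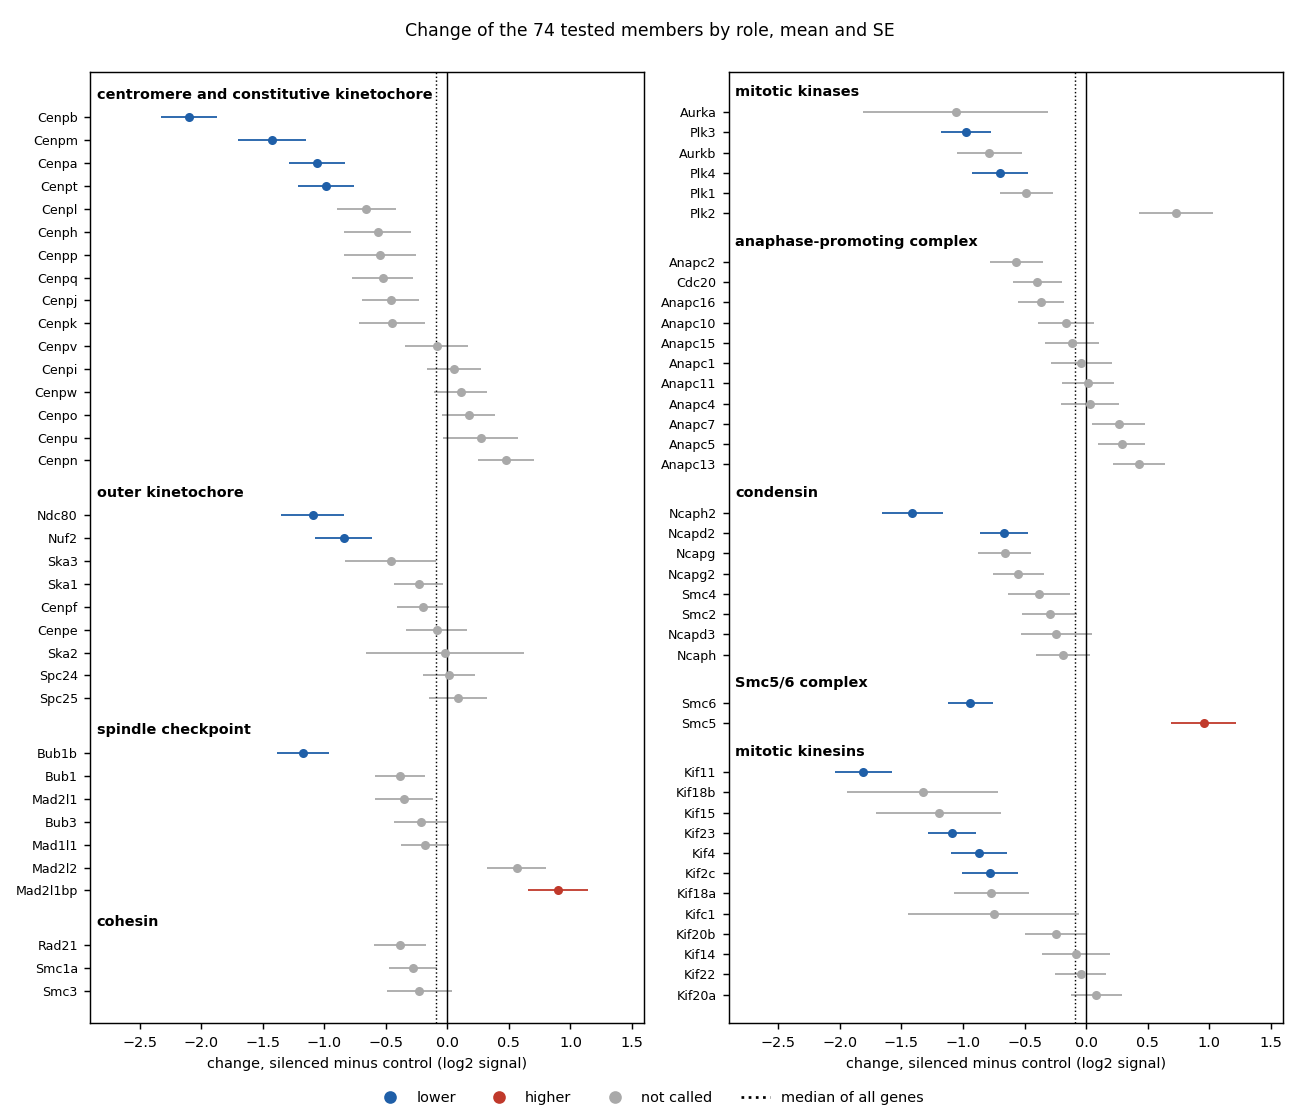
Change of the 74 tested members, grouped by role: the horizontal axis is silenced minus control on the log2 signal scale, points are the change, bars are its SE, and the dotted line is the median of all genes (-0.09). The 16 lower members lie between -2.10 and -0.67 and are spread over 7 of the 9 role groups, and the 2 higher members are Smc5 and Mad2l1bp.

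The contrast can also be laid out by array, as the median deviation of the members from their mean over the 8 arrays, minus the same for all genes. This value was 0.12, 0.08, 0.19 and 0.11 on control replicates 1 to 4, and -0.19, -0.13, -0.05 and 0.02 on silenced replicates 1 to 4. All controls lay above all silenced arrays, and the dim silenced replicate 4 lay nearest to the controls. As the mean is taken over both groups, this order restates the group difference and adds no separate test. Within row 1 of the slide the median change of the members was -0.29 (0.06 for all genes), and within row 2 it was -0.41 (-0.19 for all genes). Each row has 1 array of 1 group.

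The members are given below by role, in groups too small to be set apart from the 14.0% of all genes called lower, and no such difference was tested. Of the Cenp genes outside the outer kinetochore, 4 of 16 tested members were lower (25.0%) and none was higher, with a median change of -0.49 (-0.53 without Cenpj, whose product is a centriole protein). Cenpb, which binds a short DNA box in centromere repeats, fell most of all members by the brightest probe, while its other tested probe was not called (-0.36, adjusted p = 0.686). Its signal was 12.60, 12.69, 12.97 and 12.72 in the controls and 10.69, 11.13, 10.39 and 10.38 in the silenced cells, a change of -2.10 ± 0.23 (SE, adjusted p = 0.000607). The silenced cells thus kept 23.3% of the control signal at this probe, and every silenced array lay more than 1 log2 unit below every control. Cenpa encodes the histone H3 variant on which the kinetochore is built. Its values were 13.56, 13.76, 13.20 and 13.79 against 12.61, 12.83, 12.49 and 12.14, a change of -1.06 ± 0.23 (SE, adjusted p = 0.00969), and the groups did not overlap. Cenpm, a subunit of the constitutive centromere network, had a value on 3 control arrays (9.80, 9.35 and 9.76) and on all silenced arrays (8.45, 8.51, 8.24 and 7.65), with a change of -1.43 ± 0.27 (SE, adjusted p = 0.00749). Cenpt, whose histone fold contacts DNA and whose tail recruits the Ndc80 complex, fell from a range of 11.33 to 11.94 to 10.21 to 10.94, by 0.99 ± 0.23 on the log2 scale (adjusted p = 0.0135). The 12 other members of this group were not called, and their changes ran from -0.66 for Cenpl to 0.48 for Cenpn, the subunit that reads the Cenp-A nucleosome. Cenpw, the histone-fold partner of Cenpt, had a change of 0.11 ± 0.21. Cenpo, at 0.17 by its brightest probe, was called lower at its 2 other tested probes (-1.23 and -2.04).

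In the outer kinetochore, the layer that meets the microtubules, 2 of 9 members were lower (22.2%) and the median change was -0.20. Both belong to the Ndc80 complex, the main microtubule coupler. Ndc80 had values of 10.81, 10.98, 10.39 and 11.01 in the controls and 9.78, 10.01, 9.90 and 9.11 after silencing, a change of -1.09 ± 0.26 (SE, adjusted p = 0.0143). Nuf2, with which it forms the microtubule-binding head, had values of 12.17, 12.41, 13.06 and 12.41 and 11.81, 11.76, 11.60 and 11.50, a change of -0.84 ± 0.23 (SE, adjusted p = 0.0273). In both genes the silenced arrays lay below all controls. Spc24 (0.01 ± 0.21) and Spc25 (0.08 ± 0.24), which anchor the same complex to the inner kinetochore, were not called, and their groups overlapped. These calls depend on the probe, since another probe of Spc25 was called lower (-0.83, adjusted p = 0.0198) and another probe of Nuf2 was not called (-0.17). The kinetochore motor Cenpe (-0.09 ± 0.25) and the coiled-coil protein Cenpf (-0.20 ± 0.21) were not called either. The 3 Ska subunits had changes of -0.23, -0.02 and -0.46 for Ska1, Ska2 and Ska3, none of them called, and another probe of Ska3 was lower (-1.66).

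The spindle checkpoint held 1 lower and 1 higher member of 7 (14.3% each), and its median change was -0.22. Bub1b, which encodes the BubR1 subunit of the mitotic checkpoint complex, had values of 12.14, 12.50, 12.27 and 12.40 in the controls. After silencing these were 11.22, 11.49, 10.80 and 11.12, a change of -1.17 ± 0.21 (SE, adjusted p = 0.00454) without overlap. Mad2l1bp encodes p31comet, which takes Mad2 off the checkpoint complex and so ends the checkpoint signal. It rose from 12.01, 12.32, 12.46 and 12.43 to 13.27, 13.12, 13.71 and 12.72, by 0.90 ± 0.25 (adjusted p = 0.0269), with silenced replicate 4 closest to the controls. The kinase Bub1 (-0.39 ± 0.20, adjusted p = 0.197) and Mad2l1 (-0.35 ± 0.24, adjusted p = 0.316), which encodes Mad2, were not called. Bub3 and Mad1l1 had changes of -0.22 and -0.19, and Mad2l2, better known from DNA repair, one of 0.56, none of them called. The direction for Mad2l2 depends on the probe, since its 2 other tested probes were both called lower (-0.71 and -0.84). Another probe of Mad2l1 was called lower as well (-0.73).

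Of the mitotic kinases, 2 of 6 tested members were lower (33.3%), and the median change was -0.74. Plk3, a polo-like kinase induced by stress, had values of 12.89, 13.04, 13.36 and 13.07 in the controls and 12.17, 12.36, 12.09 and 11.83 after silencing, a change of -0.98 ± 0.20 (SE, adjusted p = 0.00852). Plk4, the kinase of centriole duplication, fell by 0.70 ± 0.23 (adjusted p = 0.04996), just inside the threshold. Its other tested probes were called lower as well (-1.65 and -1.20). Plk1, the polo kinase of mitotic entry and exit, was not called at -0.48 ± 0.21 (adjusted p = 0.130), and Aurkb, of the chromosomal passenger complex, missed the threshold at -0.79 ± 0.26 (adjusted p = 0.0568), while another probe of it was called lower (-1.29). The spindle pole kinase Aurka had a mean change of -1.06 ± 0.75 and was not called. Its values were 14.17, 14.67, 14.73 and 14.34 in the controls and 14.15, 14.37, 14.51 and 10.64 after silencing. That mean rests on silenced replicate 4, since the other silenced arrays lay within or next to the control range. Plk2, which stress and serum induce, had a change of 0.73 ± 0.30 and was not called, but it was higher when silenced replicate 4 was left out.

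The anaphase-promoting complex, the ubiquitin ligase that starts anaphase, had no lower and no higher gene among the 11 members when each was read at its brightest probe, with 1 of them at an unadjusted limma p under 0.05 (Anapc2). The complex was not without calls, since of its 4 tested subunits outside the rule Cdc27 was lower at the brightest probe (-1.46 ± 0.25, adjusted p = 0.00360), as was the activator Fzr1 (-1.53 ± 0.25, adjusted p = 0.00287), while Cdc16 (0.27), Cdc23 (0.13) and Cdc26 (-0.03) were not called. Other probes were called lower in 6 of the 11, namely Anapc15 (-2.54), Anapc2 (-2.08), Cdc20 (-1.28), Anapc16 (-1.26), Anapc11 (-1.18) and Anapc4 (-0.96), so that the count of 0 rests on the choice of probe. These 6 are of 9 with 2 or more tested probes (66.7%), where 33.6% of all such genes not called by the brightest probe had another that was lower. At the level of the gene, some other settings called members lower: Anapc2 with normexp, Anapc2 and Cdc20 with the trended prior and over the mean of probes, Anapc16 in the series table, and Anapc2, Anapc16 and Cdc20 with the unequal-variance test without adjustment (none with it). Anapc13 was higher under 5 settings, and Anapc5 (cyclic loess), Anapc11 (no mask) and Anapc7 (without control replicate 3 and silenced replicate 4) under 1 each. At the brightest probe the median change was -0.04, and the changes ran from -0.57 ± 0.21 in Anapc2 to 0.43 ± 0.21 in Anapc13. Cdc20, the activator that the checkpoint restrains, was at -0.40 ± 0.20 (adjusted p = 0.182), with control values of 14.56, 14.87, 15.16 and 15.01 against 14.59, 14.62, 14.43 and 14.38, which overlap.

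Cohesin and condensin are rings that hold and shape chromosomes. None of the 3 tested cohesin members was called at the brightest probe, none had an unadjusted limma p under 0.05, and the unequal-variance test called none. Smc1a (-0.28 ± 0.20), Smc3 (-0.23 ± 0.27) and Rad21 (-0.38 ± 0.21), the subunit that separase cleaves, all had a small negative change at the brightest probe. Smc1a and Smc3 each had another probe called lower (-2.11 and -1.31), and both were lower when all tested probes of the gene were averaged. Of the cohesin subunits outside the rule, Stag1 was lower (-0.92 ± 0.30, adjusted p = 0.0499), although control replicate 3 (10.54) lay within the silenced range (10.28 to 10.69), and Stag2 was not called (-0.22 ± 0.37). In condensin, the change was negative in all 8 members, the more common direction over all genes too, and passed the test in 2 (25.0%). No difference between the counts of the rings was tested. Ncaph2, the kleisin of condensin II, had values of 12.63, 12.95, 13.50 and 12.94 in the controls and 11.68, 11.94, 11.26 and 11.49 after silencing, a change of -1.41 ± 0.25 (SE, adjusted p = 0.00403). Its other tested probe was called lower as well (-0.94). Ncapd2, of condensin I, fell from 13.25 to 13.54 to 12.46 to 12.95, by 0.67 ± 0.20 (adjusted p = 0.0342), and its other tested probe was not called (-0.67). Neither gene's groups overlapped, nor did those of Ncapg (-0.66) and Ncapg2 (-0.55), which were not called. The core subunits Smc2 (-0.30 ± 0.22) and Smc4 (-0.38 ± 0.25) were not called, while Smc4 and Ncaph each had another probe that was lower (-1.58 and -1.12).

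The Smc5/6 complex, which helps to resolve linked chromatids and to repair breaks, had both measured members called by the brightest probe, in opposite directions. Smc5 had values of 10.02, 10.50, 10.29 and 10.27 in the controls and 11.36, 11.11, 11.80 and 10.62 after silencing, a change of 0.95 ± 0.27 (SE, adjusted p = 0.0289). Smc6, its partner in the ring, had values of 11.69, 11.92, 11.78 and 11.90 and 10.94, 10.97, 10.94 and 10.67, a change of -0.94 ± 0.18 (SE, adjusted p = 0.00611). The groups did not overlap in either gene. Both Smc5 and Mad2l1bp lost their calls when any of control replicates 1, 2 and 4 or silenced replicates 1 to 3 was left out, and with the slide row as a block (adjusted p = 0.0889 and 0.106), while Smc6 kept its call there (adjusted p = 0.0403). The call of Smc6 rests on its brightest probe, since the other tested probe was not called (-0.00) and neither was the mean of both (-0.47, adjusted p = 0.217).

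The mitotic kinesins, motors that build and position the spindle, had the most negative median of the groups with more than 2 tested members (-0.77), with 4 of 12 lower (33.3%). Kif11 encodes Eg5, the motor that pushes the spindle poles apart. Its values were 10.88, 11.05, 10.72 and 11.02 in the controls and 9.12, 9.59, 9.08 and 8.63 after silencing, a change of -1.81 ± 0.23 (SE, adjusted p = 0.00114), to 28.5% of the control signal. The lowest control lay more than 1 log2 unit above the highest silenced array. Kif23, the Mklp1 subunit of centralspindlin, which organizes the spindle midzone, had values of 11.97, 12.34, 11.96 and 12.10 and 10.98, 11.27, 10.84 and 10.91, a change of -1.09 ± 0.19 (SE, adjusted p = 0.00445). Its other tested probes were called lower as well (-1.45 and -0.83). The chromokinesin Kif4 (control range 10.83 to 11.51, silenced range 9.84 to 10.51) fell by 0.87 ± 0.23, and Kif2c, a microtubule depolymerase (10.08 to 10.62 and 9.27 to 9.97), by 0.78 ± 0.23. The other tested probe of Kif2c was not called (-0.89). Larger mean changes in Kif18b (-1.33 ± 0.61) and Kif15 (-1.20 ± 0.51) did not pass the test. In each, 1 array stood apart, silenced replicate 4 for Kif18b (8.14, the others 10.83 to 11.37) and control replicate 3 for Kif15 (7.53, the others 9.74 to 10.00). At the brightest probe Kif15 was lower without control replicate 3, and Kif18b only without that array and silenced replicate 4 together. Another probe of Kif15 was called lower (-1.29). Kif20a, Kif22 and Kif14 had changes of 0.08, -0.04 and -0.08.

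**Figure D2:**
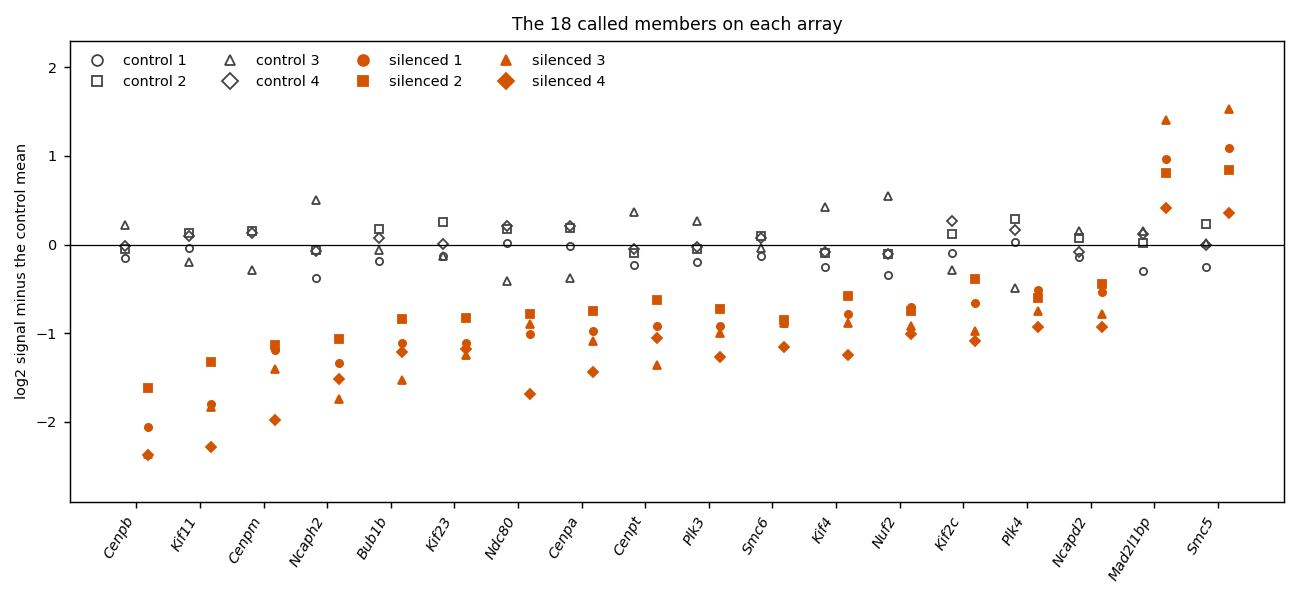
The 18 called members on each of the 8 arrays: the vertical axis is the log2 signal minus the mean of the gene's control arrays, open grey symbols are controls, filled orange symbols are silenced cultures, and the symbol shape gives the replicate number. In each of the 16 lower members every silenced symbol lies below every control symbol, from Cenpb (-2.10 in the mean) to Ncapd2 (-0.67).

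The 16 lower members differed in how far their calls depended on the processing. Over the 21 alternative settings that adjust their p-values, Bub1b, Cenpa, Kif11, Kif23 and Ncaph2 were lower under all 21. Cenpb and Plk3 were lower under 20, and so was Smc6. Fewest calls went to Plk4 (8), Kif2c (9), Ncapd2 (11) and Nuf2 (11). Of the members not called in the main setting, 15 were lower and 9 higher under at least 1 alternative, and Aurkb and Ncapg came closest with 7 each. The matching counts over all genes were not made. Among single settings, up to 18.6% of all genes were lower (shift to the 75th percentile) and up to 22.1% higher (cyclic loess). When the slide row entered the fit as a block, 8 kept their call: Bub1b, Cenpa, Cenpb, Cenpm, Kif11, Kif23, Ncaph2 and Smc6. In every one of the 23 settings compared, the main one included, the share called lower was higher among the members than among all genes. The settings share arrays, so that this count describes the settings and is no repeated test.

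**Figure D3:**
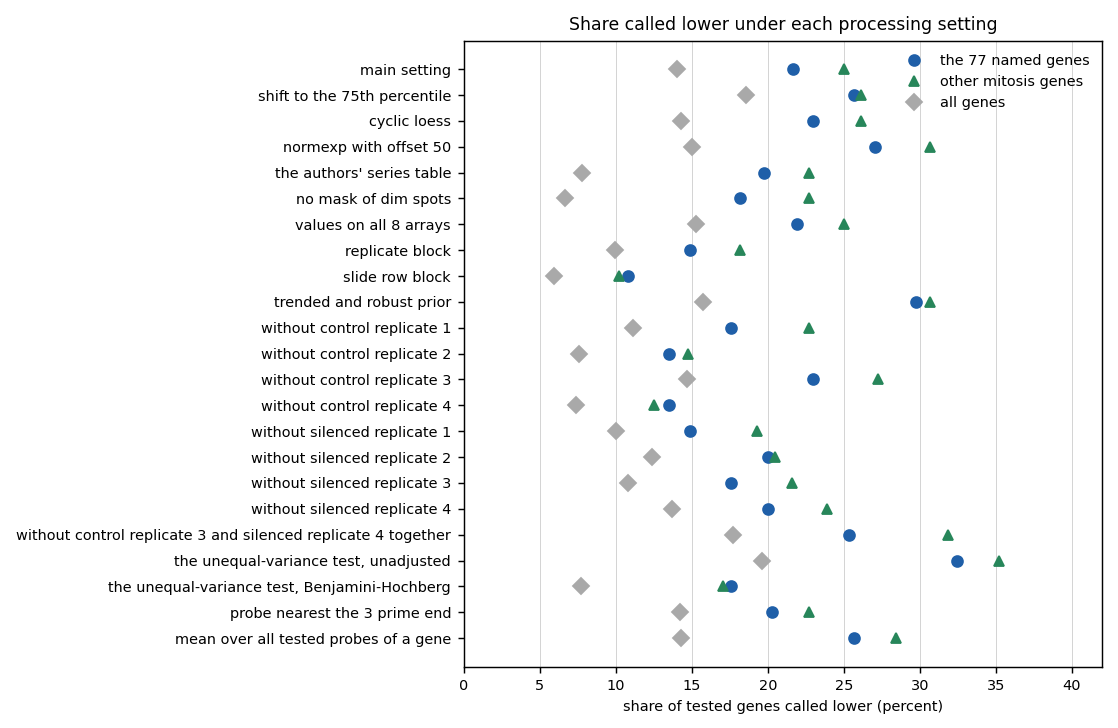
Share of tested genes called lower under the main setting and 22 alternatives: the horizontal axis is the percentage, blue circles are the kinetochore, spindle and chromosome segregation genes, green triangles are the other mitosis genes, and grey diamonds are all genes. The circles run from 10.8% with the slide row as a block to 32.4% with the unequal-variance test unadjusted, and the diamonds lie to their left in all settings.

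The choice of probe mattered within genes. In all, 128 of the 154 member probes could be tested, of which 40 (31.3%) were lower and 2 higher, against 18.4% and 4.79% of all probes. For 17 members that were not called by the brightest probe, another probe was lower, so that 33 members had at least 1 lower probe. These 17 are of 32 such members with 2 or more tested probes (53.1%, against 33.6% of 5149 genes). In all, 25 of 40 members with 2 or more tested probes had a lower one (62.5%, against 41.4% of 6343 genes). Probes of 1 gene were never called in opposite directions. In 40 members with 2 or more tested probes on 1 strand, the probe farther 5′ had the more negative change in 29 (72.5%, against 69.6% of 6227 genes on the whole array). The median change of these 40 was -0.79 at the 5′ probe and -0.35 at the 3′ probe, and over all such genes -0.46 and -0.04. The 5′ probes were mostly the dimmer ones. The median 5′ minus 3′ signal of these members was -2.86 to -2.42 on the control and -3.19 to -2.77 on the silenced arrays. Over all such genes it was -2.08 to -1.79 and -2.51 to -2.25. The 5′ probe was called lower in 16 members (40%, against 27.5% of all such genes) and the 3′ probe in 7 (17.5%, against 13.3%), with 3 members lower at both. The labelling kit primes from the poly(A) tail, and the part of this gradient along the gene in the counts above was not tested.

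The cohesin gene Smc1a showed the difference most plainly. The call of Cenpb, the member that fell most, rests on the brighter of its 2 tested probes, which is the 5′ one of the pair. In these pairs 5′ and 3′ give only the order of the probes. Both pairs are given here in the orientation of the transcript, with positions in mm9.
Smc1a 5′ probe, chrX:148481288-148481347, plus strand: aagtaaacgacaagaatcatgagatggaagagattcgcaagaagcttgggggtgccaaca
Smc1a 3′ probe, chrX:148496427-148496486, plus strand: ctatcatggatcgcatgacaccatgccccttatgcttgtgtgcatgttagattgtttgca
Cenpb 5′ probe, chr2:131003863-131003922, minus strand: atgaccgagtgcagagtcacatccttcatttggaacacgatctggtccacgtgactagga
Cenpb 3′ probe, chr2:131000948-131001007, minus strand: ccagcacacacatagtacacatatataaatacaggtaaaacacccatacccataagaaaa
The Smc1a probe nearer the 5′ end had values of 8.86, 9.32, 9.02 and 9.45 in the controls and 7.15, 7.69, 6.49 and 6.88 after silencing, a change of -2.11 ± 0.28 (SE, adjusted p = 0.00125). At the 3′ probe the values were 13.12, 13.29, 13.46 and 13.29 against 13.15, 12.98, 13.21 and 12.71, a change of -0.28 ± 0.20 that was not called. The Cenpb 3′ probe was well above background on 3 arrays of each group and changed by -0.36 ± 0.55 (adjusted p = 0.686). It was the dimmer probe of the pair, by 4.14 to 6.67 log2 units on the controls and 3.12 to 4.61 on the silenced arrays. Of the other pairs, chosen after their values were seen, Anapc2 had -2.08 at its 5′ and -0.57 at its 3′ probe, Smc3 had -1.31 and -0.23, and Cdc20 had -1.28 and -0.40. In Smc6 (-0.00 at the 5′ and -0.94 at the 3′ probe) and Nuf2 (-0.17 and -0.84) the order was the opposite one. Where in the gene each probe lies, in exons or untranslated regions, was not determined here.

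**Figure D4:**
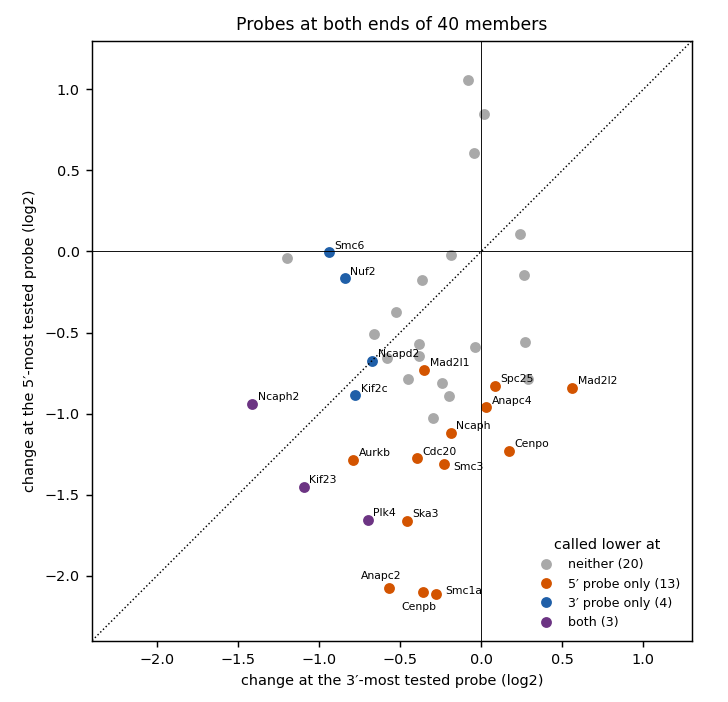
Change at the 3′-most (horizontal axis) and 5′-most (vertical axis) tested probe of 40 members, both silenced minus control in log2 units, with the dotted line marking equal change. Most points (29 of 40) lie below the line; colours give the probe that was called lower, 13 members at the 5′ probe only, 4 at the 3′ probe only, 3 at both and 20 at neither.

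Some probes hold the letters AATAAA or ATTAAA of a polyadenylation signal, which can lie anywhere in a transcript and do not place a probe at its 3′ end. Of 16 members represented by such a probe, 1 was lower (Bub1b, 6.25%, against 5.64% of 3332 genes of this kind) and 1 higher (Smc5, against 11.7%), so that the share called lower was near that of all such genes. Their median change was -0.05, against 0.19 over those genes. Of the 58 members represented by another probe, 15 were lower (25.9%, against 15.8% of 16028 genes) and the median was -0.42 (-0.15).

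The promoters of the members were searched for sequence features that the rule did not use. Genes of late cell cycle stages are known to carry the cell cycle homology region, TTTGAA or TTCGAA, which the DREAM and MuvB complexes bind, often beside CCAAT boxes, which NF-Y binds. These letters were searched on both strands in windows from 250 bases before to 50 bases after each start in RefSeq (GRCm38.p6), which matched 71 of the 77 members with 80 windows. TTTGAA or TTCGAA was found in 36 members (50.7%), against 21.7% of 27025 genes, and together with CCAAT in 25 (35.2%, against 8.61%). CCAAT, with or without these letters, was found in 53.5% of the members and 41.1% of all genes. The 69 other mitosis genes with a window, from the list of 88 described below, held each more often, at 59.4, 65.2 and 44.9% for the homology region, the CCAAT box and both together, so that the features are not particular to the members. Among the members lower after silencing, 11 of 16 held TTTGAA or TTCGAA (68.8%), and among those not called 23 of 50 (46.0%). The order was the opposite one for CCAAT, in 7 of 16 (43.8%) and 28 of 50 (56.0%), and neither difference was tested. A match describes letters in a window and shows no binding.

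Windows are printed for a kinesin, a checkpoint gene and a centromere gene that were lower in every setting, and for Smc5, which was higher, as examples of windows with and without these letters. They were chosen for that, and 5 of the 16 lower members lack the homology region. Capitals mark the cell cycle homology region and the CCAAT box on either strand, and each window runs 5′ to 3′ on the gene's strand.
Kif11 promoter, chr19:37376132-37376431, plus strand: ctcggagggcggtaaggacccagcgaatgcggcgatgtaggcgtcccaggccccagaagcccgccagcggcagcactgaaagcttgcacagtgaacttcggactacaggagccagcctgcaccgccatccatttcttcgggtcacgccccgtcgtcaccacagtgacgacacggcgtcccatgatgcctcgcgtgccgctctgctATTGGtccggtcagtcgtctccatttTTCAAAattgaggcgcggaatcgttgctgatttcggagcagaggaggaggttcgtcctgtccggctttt
Bub1b promoter, chr2:118597961-118598260, plus strand: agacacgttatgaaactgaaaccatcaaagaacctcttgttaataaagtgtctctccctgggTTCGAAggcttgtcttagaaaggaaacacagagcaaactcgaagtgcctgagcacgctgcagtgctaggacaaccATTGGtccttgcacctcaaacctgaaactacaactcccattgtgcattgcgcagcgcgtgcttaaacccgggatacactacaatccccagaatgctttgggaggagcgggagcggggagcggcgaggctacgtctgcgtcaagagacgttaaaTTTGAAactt
Cenpa promoter, chr5:30666636-30666935, plus strand: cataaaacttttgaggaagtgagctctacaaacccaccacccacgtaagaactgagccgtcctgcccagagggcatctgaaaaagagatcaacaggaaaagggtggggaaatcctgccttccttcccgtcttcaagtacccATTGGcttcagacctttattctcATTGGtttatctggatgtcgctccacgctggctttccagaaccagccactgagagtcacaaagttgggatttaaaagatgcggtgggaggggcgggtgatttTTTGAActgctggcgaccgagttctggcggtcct
Smc5 promoter, chr19:23272550-23272849, minus strand: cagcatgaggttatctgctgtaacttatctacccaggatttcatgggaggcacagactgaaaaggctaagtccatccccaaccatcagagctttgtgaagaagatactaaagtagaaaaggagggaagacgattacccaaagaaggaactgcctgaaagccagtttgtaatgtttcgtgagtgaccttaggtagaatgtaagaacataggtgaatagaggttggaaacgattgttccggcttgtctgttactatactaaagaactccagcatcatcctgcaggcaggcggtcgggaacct
In Kif11 the homology region begins 19 bases and the CCAAT box 45 bases before the start. In Cenpa it lies at base 17 of the transcript, with CCAAT boxes beginning 109 and 86 bases before the start. Bub1b holds 1 such match at base 41 of the transcript and another 188 bases before the start, with a CCAAT box 113 bases before it. Cenpb, which had the largest change, holds none of these letters in its window, nor do Cenpt, Nuf2, Plk3, Plk4, Smc5 and Mad2l1bp.

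Cell division genes outside the rule were read in the same way from a list of 88, all of which could be tested. Of these 22 (25.0%, against 14.0% of all genes) were lower and 1 was higher (Dsn1, 1.14%, against 5.99%). The median change was -0.39, close to the -0.38 of the members and beside -0.09 over all genes. The largest decreases were in Mis12 and Pmf1, subunits of kinetochore assembly that the name rule misses, and in the phosphatase Cdc25b. Mis12 had values of 10.43, 10.64, 10.65 and 10.69 in the controls and 8.80, 9.17, 8.73 and 7.94 after silencing, a change of -1.94 ± 0.27 (SE, adjusted p = 0.00145). Pmf1, its partner in the Mis12 complex, had values of 12.97, 13.37, 13.64 and 13.32 and 11.54, 11.88, 11.22 and 11.69, a change of -1.74 ± 0.23 (SE, adjusted p = 0.00114). Dsn1, another subunit of that complex, had values of 9.76, 9.95, 9.87 and 9.98 in the controls and 10.90, 10.51 and 11.31 on the 3 silenced arrays with a value, a change of 1.02 ± 0.24 (SE, adjusted p = 0.0186). The call of Dsn1 rests on that probe. Over the mean of its probes the change was 0.10 (adjusted p = 0.804), at another probe it was -0.53, and the call was lost under 9 of 21 alternatives. Cdc25b changed by -1.64 ± 0.22 (SE, adjusted p = 0.00170), with a value on 3 control arrays.

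The general proliferation genes Top2a (-1.11 ± 0.20, adjusted p = 0.00516), Mki67 (-0.72 ± 0.21, adjusted p = 0.0365) and the mitotic cyclin Ccnb1 (-0.63 ± 0.18, adjusted p = 0.0311) were lower. Top2a was called under all 22 alternatives, but Mki67 lost its call under 10 (adjusted p up to 0.160) and Ccnb1 under 9 (up to 0.514). Cdk1, the kinase that Ccnb1 activates, was not called (-0.40 ± 0.25, adjusted p = 0.281). The transcription factors of mitotic genes were not called, with Mybl2 at -0.57 ± 0.21 and Foxm1 at 0.09 ± 0.25, and the sign for Foxm1 depended on the probe (-1.12, adjusted p = 0.0187, over the mean of its probes). Blocking on the slide row left 9 lower genes on this list, and the count was 11 without control replicate 4 and 13 without control replicate 2. The shares of all genes called lower in these settings were 5.97, 7.39 and 7.56%.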

How the data were processed

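Processed signal intensity and spot flags were deposited by the authors as scanner output of 8 arrays, 4 control and 4 silenced, made from total RNA labelled with Cy3. The headers name Agilent Feature Extraction 12.0.0.7 and the submitters' processing notes 10.7.3.1. A deposited series table holds a linear normalized signal intensity with the same rank order on every array, its scaling not stated, and served as an alternative. As in the study's methods, spots not positive and significant were set to missing, values were quantile normalized, and spots of 1 probe were averaged. Normalization and averaging were done here on the log2 scale, while the methods name no scale for them. Control and outlier spots were left out. Groups were compared with limma 3.58.1 in R 4.3.3 (lmFit, eBayes, no covariate). Mean fold changes are therefore changes in log2 signal, and the number of arrays limits their precision.

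In simulated data with 200 of 28649 probes changed, 55% of changes of 2 log2 units and 12% of changes of 1 were recovered, with 3 false calls among 70. In the data 5269 probes were called lower and 1373 higher. The cutoff of the adjustment depends on how many probes change, so these rates do not carry over to the data. Replicates are labelled biological. Same-numbered arrays did not deviate together in all 4 pairs, so no pairing was assumed. The unequal-variance test among the alternatives, on the values of single probes, is the one that a supplementary legend of the study gives for these arrays. The permutation test with Bonferroni correction that its main methods describe for muscle fibre types was not run. Alternatives were other normalizations, background corrections, filters, blocks, tests and probe choices, and arrays left out. The members, lists and tests were chosen with earlier results of these data known. Members were named by role: up to 4 called genes of each role and direction with the largest change, and a fixed set of key genes. Of the 88 other mitosis genes, the 3 largest called changes per direction and 6 key genes were named. Genes outside this rule were named after their values were seen. Probe positions are those of the files (mm9), promoters those of RefSeq (GRCm38.p6). No columns of other samples were used.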

Additional observations from a re-analysis of the deposited data

Results flagged for a closer look

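Over all tested members with 4 values in a group, the other mitosis genes that are named, Pvt1 and 4 measures of the arrays, 175 groups of 4 arrays were examined, and the sample at 1 end stood apart from the other three 17 times, a distance that chance gives in about 1 of 20 groups. Of these, 10 fell on silenced replicate 4, 5 on control replicate 3, and 1 each on control replicates 1 and 4. Aurka had a log2 signal of 10.64 on silenced replicate 4, where the other silenced arrays had 14.15 to 14.51. Smc6 was at 10.67 on silenced replicate 4 and at 10.94 to 10.97 on the others, so that the array that stood apart was also the lowest for a gene called lower. Smc3 was at 13.29 on control replicate 3 and at 12.57 to 12.68 on the other controls. Smc4 was at 13.98 there, against 13.46 to 13.54, and Cenpu at 10.08, against 9.26 to 9.39, while Kif15 (7.53, against 9.74 to 10.00) and Ska2 (5.67, against 8.32 to 8.78) were low there. Silenced replicate 4 was also lowest for Anapc11 (13.43, the others 13.98 to 14.02), Bub3 (13.31, the others 13.88 to 13.90), Kif18b (8.14, the others 10.83 to 11.37), Kifc1 (4.73, the others 7.92 to 8.44), Mad2l2 (11.73, the others 12.27 to 12.37) and Ska3 (8.86, the others 10.49 to 10.60). Cenpi was at 10.94 on control replicate 4 (the others 11.08 to 11.10), and Cenpw at 12.60 on control replicate 1 (the others 12.83 to 12.86). On silenced replicate 4, 51.6% of spots were positive and significant (59.8 to 61.0% on the other silenced arrays) and 36.8% were well above background (42.6 to 43.2%). Without control replicate 3 and silenced replicate 4 together, a setting chosen after seeing the data, 19 members were lower and 7 higher, and 17.7% and 20.9% of all genes.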

How the results depend on the processing

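The count of lower members was 16 and ranged from 8 with a block for the slide row to 24 with the unequal-variance test unadjusted (13 after Benjamini-Hochberg adjustment), and from 10 to 17 with 1 array left out. All genes called lower moved with it, from 14.0% to 5.97% with the block, 19.6% with that test unadjusted and 7.73% adjusted. With 1 array left out they ranged from 7.39 to 14.7%. The count of higher members was less stable: 2 became 7 with cyclic loess, 8 in the authors' series table, 9 without the mask of dim spots, 7 without control replicate 3 and silenced replicate 4 together, 0 with that block, 0 with the unequal-variance test after adjustment, and 0 to 6 with 1 array left out. All genes called higher moved with it, to 22.1% with cyclic loess, 12.8% in the series table and 10.8% without the mask. They were 20.9% without both arrays, 2.41% with the block, 2.58% with the adjusted test, and 2.96 to 14.5% with 1 array left out. Other mitosis genes called lower were 22, but 9 with the row block, and 11 to 24 with 1 array left out. Those called higher were 1, and 4 with the shift to the 75th percentile, 7 with cyclic loess, 2 with normexp, 7 in the series table, 7 without the mask, 0 with values on all 8 arrays, 0 with the slide row, 2 with the trended prior, 5 without control replicate 3 and silenced replicate 4, 4 with the unequal-variance test unadjusted and 0 adjusted, 0 over the mean of probes, and 0 to 4 with 1 array left out. The median of the members minus that of all genes was -0.28. It was -0.16 with the shift to the 75th percentile, -0.20 without the mask, -0.20 without control replicate 3 and silenced replicate 4, -0.36 over the mean of probes, and -0.31 to -0.20 with 1 array left out. Cyclic loess moved the median of all genes from -0.09 to 0.11, and leaving out silenced replicate 4 moved it to 0.06. The causes were not tested.

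With the replicate number as a block, 11 members were lower and 0 higher, against 9.93% and 4.46% of all genes, and of the other mitosis genes 16 and 0. Same-numbered arrays correlated at -0.02, 0.15, 0.20 and 0.06 in their deviations, and not every array correlated best with its own number, so the block stands for a number only.

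Single named genes kept their direction and side of the threshold in 740 of 877 recomputed values, lost the call in 108, gained it in 19 and reversed in 10. Cenpe, not called, turned from -0.09 to 0.037 with the shift to the 75th percentile, 0.093 with cyclic loess, 0.055 in the series table, 0.075 without the mask, 0.15 without control replicate 3 and silenced replicate 4 together, and lay between -0.26 and 0.063 with 1 array left out, positive without control replicate 3. Smc3 turned to 0.035 without control replicate 3 and silenced replicate 4 together. Foxm1 turned from 0.092 to -1.12 over the mean of its probes and lay between -0.012 and 0.28 with 1 array left out, negative without silenced replicate 1 and without silenced replicate 3. The decrease of Pvt1 ran from -3.12 to -2.19. The series table gave no value for its probe; a dim Pvt1 probe that it did give changed by 0.07 (adjusted p = 0.877). Where values on all 8 arrays were required, the Dsn1 probe had none, and another probe of that gene changed by -0.53. That a gene keeps its probe across settings was decided after these values were seen.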
